A study of Homo sapiens with 4 samples.

Results

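The genes described here are 47 of those that encode human 2-oxoglutarate dependent dioxygenases, ALKBH3 itself left out. They were chosen by name from the superfamily, and 19102 genes could be named on the array. A named probe was found for 46 of the 47, with TET3 the exception, and 42 could be tested for an effect of ALKBH3 shRNA. PC3 cells, a line derived from a bone metastasis of prostate cancer, had been infected with lentivirus carrying ALKBH3 shRNA or, as control, an shRNA against GFP, and were selected with puromycin. RNA was taken at 48 h or 96 h and hybridised to 4 Agilent one-colour arrays, with 1 array per combination. The methods of the study give these times as the length of puromycin selection, after 48 h of infection. Its results give them as times after selection. The labels do not name the ALKBH3 shRNA, nor do they say whether the time points come from separate infections. The p-values thus measure only the spread between these arrays, part of which may be technical. The 48 h arrays shared a slide, as did the 96 h arrays. Each slide thus held both shRNAs, whereas time point and slide cannot be told apart. The test used here ignores the slide, and a fit with time point as a block, which compares the shRNAs within slides, is given beside it where it changes a call. Without that block, the spread within an shRNA group includes the effects of time point and slide. When time points are compared without a block, the spread within a time point likewise includes the effect of the shRNA.

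The dioxygenases of this superfamily use iron(II), oxygen and 2-oxoglutarate to oxidise a substrate, and release carbon dioxide and succinate. ALKBH3 removes methyl groups from DNA and RNA in this way. Its relatives demethylate RNA, DNA or histones, mark the hypoxia-inducible factor HIF for degradation, or hydroxylate collagen, and several of their genes are known targets of HIF. The comparison asks whether the transcripts of the related enzymes differed when ALKBH3 was knocked down.

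All signals are log2 intensities relative to the 75th percentile of the same array, so that 0 is the brightness at that percentile. Values on the arrays are given with the control first and the knockdown second, at 48 h and then at 96 h. Signals of different probes are not comparable with each other. Each gene was represented by its brightest suitable probe. A gene was called at a difference of at least 2-fold with an unadjusted limma p below 0.05, and adjusted p-values are limma's after Benjamini-Hochberg adjustment over all genes tested. An exact permutation test of 2 arrays against 2 cannot give a p below 0.333, so none was used. In bulk RNA, fewer cells of a kind and less RNA per cell cannot be told apart.

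The knockdown was visible on both slides. The ALKBH3 probe read -0.73 in control and -2.48 in knockdown cells at 48 h, then -0.89 and -2.40 at 96 h, a log2 difference of -1.63 (SE 0.13, limma adjusted p = 0.238, and 0.021 with time point as a block). Between 66.96% and 70.91% of probes on an array were well above background, and arrays of the same time point were closer (median difference of a probe 0.146 and 0.141 log2) than arrays of the same shRNA (0.177 and 0.188). Of the epithelial markers, KRT8, KRT18, KRT19, EPCAM and CDH1 were well above background on all 4 arrays. The prostate gene KLK3 was not well above background on any array, nor was the erythroid gene HBB, and the hepatocyte gene ALB was so on 1 array. KLK2 and TMPRSS2, and the immune, endothelial and mesenchymal markers PTPRC, CD3E, PECAM1, COL1A1 and ACTA2, had at least 1 probe well above background on all 4 arrays. EPCAM read 2.88 and 3.84 at 48 h, then 2.41 and 3.40 at 96 h, and COL1A1 read -0.76 and -0.25, then -1.44 and -0.54, so both were higher with ALKBH3 shRNA at each time point. PECAM1, in contrast, read -3.13 and -3.85, then -3.77 and -4.22, and KRT19 read 7.04 and 6.76, then 6.83 and 6.75, so both were lower at each. KRT18 was also lower at each time point, CDH1 was higher, and the sign for ACTA2 differed between time points. The part of these marker differences in the results below was not tested.

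None of the 42 tested dioxygenase genes passed the 2-fold cutoff with ALKBH3 shRNA, while 1.28% of all 14556 genes tested did (186 genes). PLOD2 passed a 1.5-fold cutoff, as did 4.16% of all genes. PLOD2 and LEPRE1 had an unadjusted limma p below 0.05, against 8.3% of all genes, and adjusted p-values below 0.05 were found for 0 dioxygenase genes and 0% of all genes. With time point as a block, the adjusted p was below 0.05 for PLOD2, and for 5.13% of all genes. An unadjusted p below 0.05 was then found for 9 dioxygenase genes, compared with 25.1% of all genes. The share of dioxygenase genes past each of these cutoffs was thus at or below that of all genes. Without the block, the standard error of a difference lay between 0.11 and 0.26 log2 over the 42 genes, and 41 of the differences were smaller than 0.5 in size.

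Most of these small differences pointed downwards. With ALKBH3 shRNA 29 of the 42 genes were lower and 13 were higher, with a median difference of -0.10 log2, compared with -0.0025 over all genes, of which 50.5% were lower. The median was -0.08 at 48 h and -0.09 at 96 h. The sign was the same at both time points for 35 genes, or 83.3%, compared with 69.8% of all genes, and 26 of these were lower (61.9% of the genes, compared with 35.3% of all genes). Control and ALKBH3 shRNA arrays did not overlap for 21 genes, or 50%, compared with 36.4% of all genes. Of these, 18 were lower (42.9% of the genes, 19% of all genes) and 3 were higher (7.14%, compared with 17.4%). The median size of a difference, 0.13, was close to the 0.12 of all genes. Taking the mean over all probes of a gene in place of the brightest moved the median to -0.05. These counts describe the list and carry no test.

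**Figure D1:**
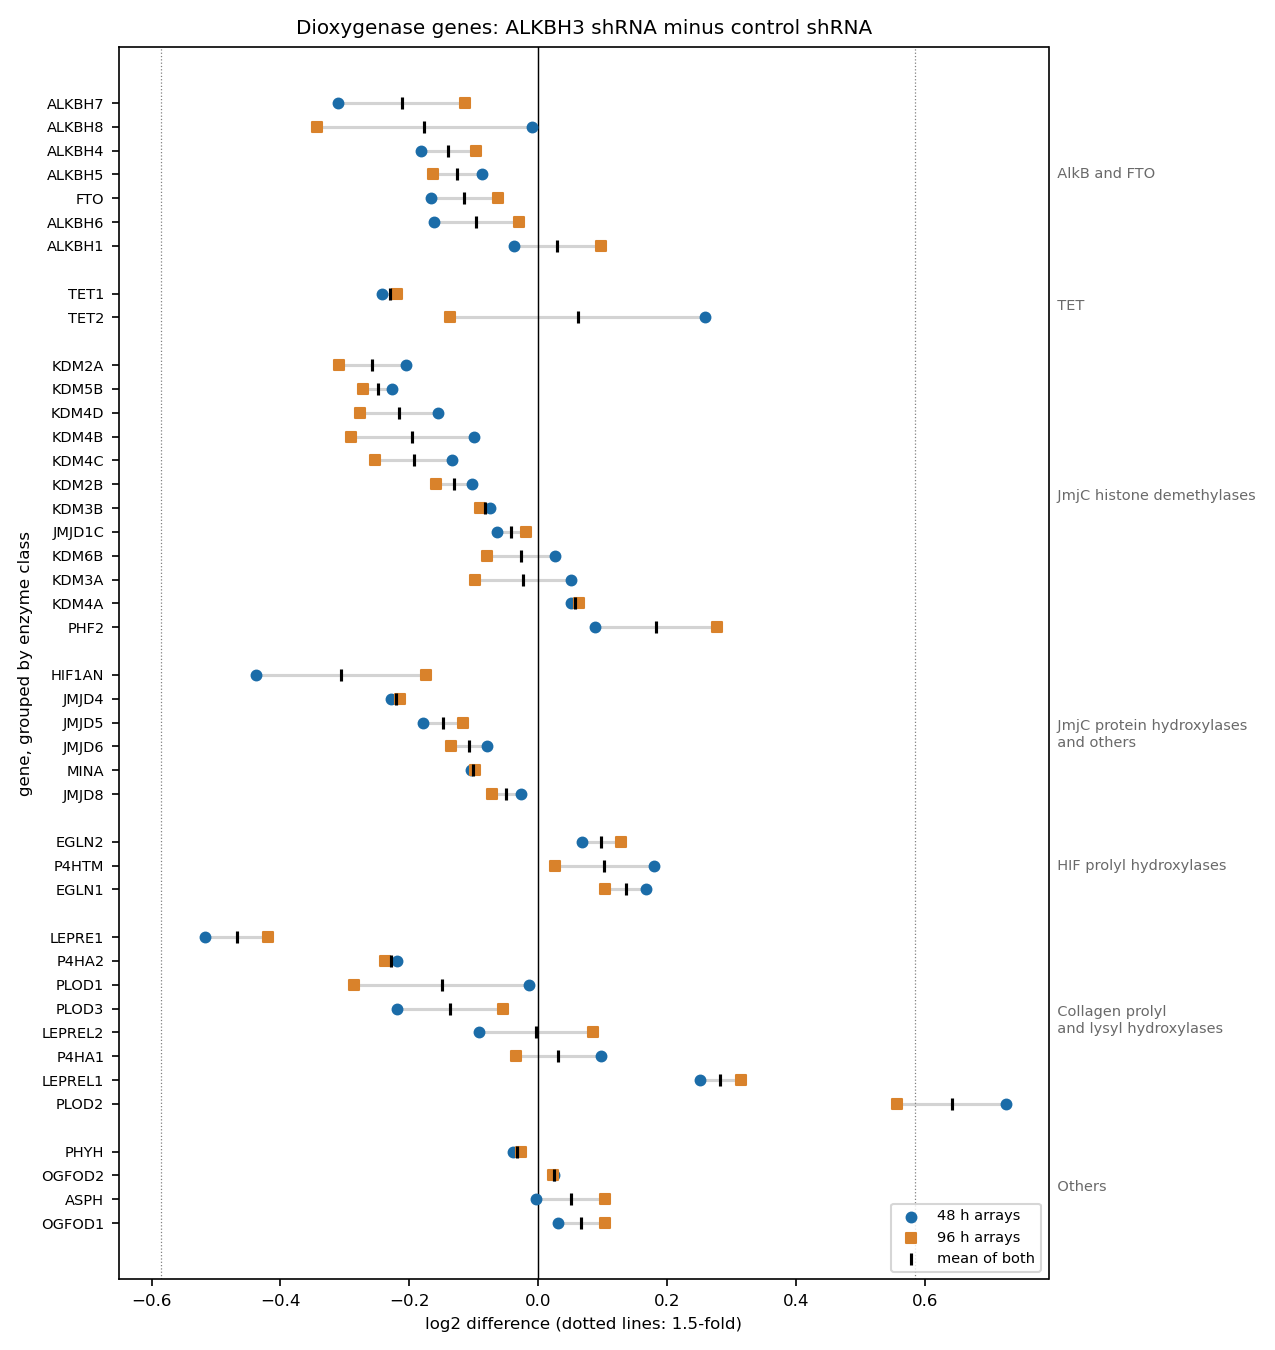
Log2 difference between ALKBH3 shRNA and control shRNA (x axis) for each of the 42 tested dioxygenase genes (y axis), grouped by enzyme class, at 48 h (blue circles) and 96 h (orange squares), with their mean (black bar). Each point compares 1 array with 1 array, and dotted lines mark 1.5-fold. PLOD2 is the gene farthest to the right (mean 0.64) and LEPRE1 the gene farthest to the left (mean -0.47). All 6 genes of the class of JmjC protein hydroxylases and others lie left of 0.

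The collagen hydroxylases held both ends of the range. These enzymes modify procollagen in the endoplasmic reticulum: P4HA subunits form the prolyl 4-hydroxylase, LEPRE1 and its relatives hydroxylate proline at another position, and PLOD enzymes hydroxylate lysine. Of 8 tested genes, 3 were higher and 5 lower with ALKBH3 shRNA, with a median of -0.07 log2. PLOD2, the lysyl hydroxylase that acts on collagen telopeptides, gave 1.19 with control and 1.91 with ALKBH3 shRNA at 48 h, then 1.34 and 1.90 at 96 h. Both ALKBH3 shRNA arrays thus lay above both control arrays. The log2 difference of 0.64 (SE 0.12, n = 2 arrays a group) is a 1.56-fold higher level, with an unadjusted limma p of 0.0044 and an adjusted limma p of 0.345, or 0.036 with time point as a block. It was 0.73 within the 48 h slide and 0.56 within the 96 h slide. Under each of 15 alternative settings the difference kept its direction and an unadjusted p below 0.05, with values between 0.56 and 0.72.

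LEPRE1, a prolyl 3-hydroxylase that acts together with CRTAP and PPIB, was lower. It gave 1.54 and 1.02 at 48 h, then 1.32 and 0.90 at 96 h, so both ALKBH3 shRNA arrays lay below both control arrays. The log2 difference was -0.47 (SE 0.14, n = 2 arrays a group), a 1.38-fold lower level, with an unadjusted limma p of 0.023 and an adjusted limma p of 0.501, or 0.053 with time point as a block. A second, dimmer LEPRE1 probe differed by -0.37 at 48 h and -0.05 at 96 h. The unadjusted p rose above 0.05 in the unpaired test of the methods, and in limma without the control array of 48 h (difference -0.36), without the ALKBH3 shRNA array of 48 h (-0.53) or without that of 96 h (-0.41).

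The promoters of PLOD2 and LEPRE1, the genes with the largest differences in either direction, are printed from RefSeq (GRCh38.p14), from 250 bases before to 50 bases after the transcription start, on the strand of the gene. Capitals mark ACGTG and GCGTG, cores of the hypoxia response element to which HIF binds, on either strand.
PLOD2, chr3:146161135-146161434, minus strand: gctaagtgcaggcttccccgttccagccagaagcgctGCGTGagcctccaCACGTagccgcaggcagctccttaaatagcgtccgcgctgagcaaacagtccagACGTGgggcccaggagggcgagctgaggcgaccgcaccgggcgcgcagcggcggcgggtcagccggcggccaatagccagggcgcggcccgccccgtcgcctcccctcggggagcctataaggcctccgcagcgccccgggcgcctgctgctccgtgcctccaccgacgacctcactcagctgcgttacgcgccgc
LEPRE1 (now P3H1), chr1:42766979-42767278, minus strand: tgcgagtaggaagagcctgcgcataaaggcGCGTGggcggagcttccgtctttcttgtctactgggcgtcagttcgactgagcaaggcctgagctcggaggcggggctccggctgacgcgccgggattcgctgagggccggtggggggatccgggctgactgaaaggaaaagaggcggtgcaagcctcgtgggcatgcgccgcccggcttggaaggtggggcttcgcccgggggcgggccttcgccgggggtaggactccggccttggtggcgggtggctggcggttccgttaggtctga
The PLOD2 window held 2 ACGTG, beginning 200 bases (opposite strand, read as CACGT) and 146 bases before the start, and 1 GCGTG at 213 bases. The LEPRE1 window held 1 GCGTG at 220 bases. RefSeq gave 62 such windows, some overlapping, for 43 of the 47 dioxygenase genes. ACGTG was found in 21% of them and in 21.4% of all 35116 windows, and GCGTG in 53.2% and 36.5%. The windows of the dioxygenase genes also had a higher GC content (median 63.8%) than all windows (58.7%), and a median of 24 CpG dinucleotides, compared with 14. These matches describe the letters and do not show binding.

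LEPREL1, another prolyl 3-hydroxylase, gave -0.98 and -0.73 at 48 h, then -1.10 and -0.79 at 96 h. Its groups did not overlap either, with a log2 difference of 0.28 (SE 0.12, limma adjusted p = 0.648). P4HA2, a catalytic subunit of prolyl 4-hydroxylase, gave 1.71 and 1.49 at 48 h and 1.92 and 1.69 at 96 h, a difference of -0.23 (SE 0.15, limma adjusted p = 0.808), and was picked for printing after its values were seen. PLOD1, the lysyl hydroxylase of the collagen helix, had probes that disagreed. The brightest read 1.31, 1.30, 1.63 and 1.35, a difference of -0.01 at 48 h and -0.29 at 96 h. The second probe differed by 0.24 and 0.20. PLOD3, P4HA1 and LEPREL2 had mean differences of -0.14, 0.03 and -0.0030. P4HA3 was not well above background on any array.

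**Figure D2:**
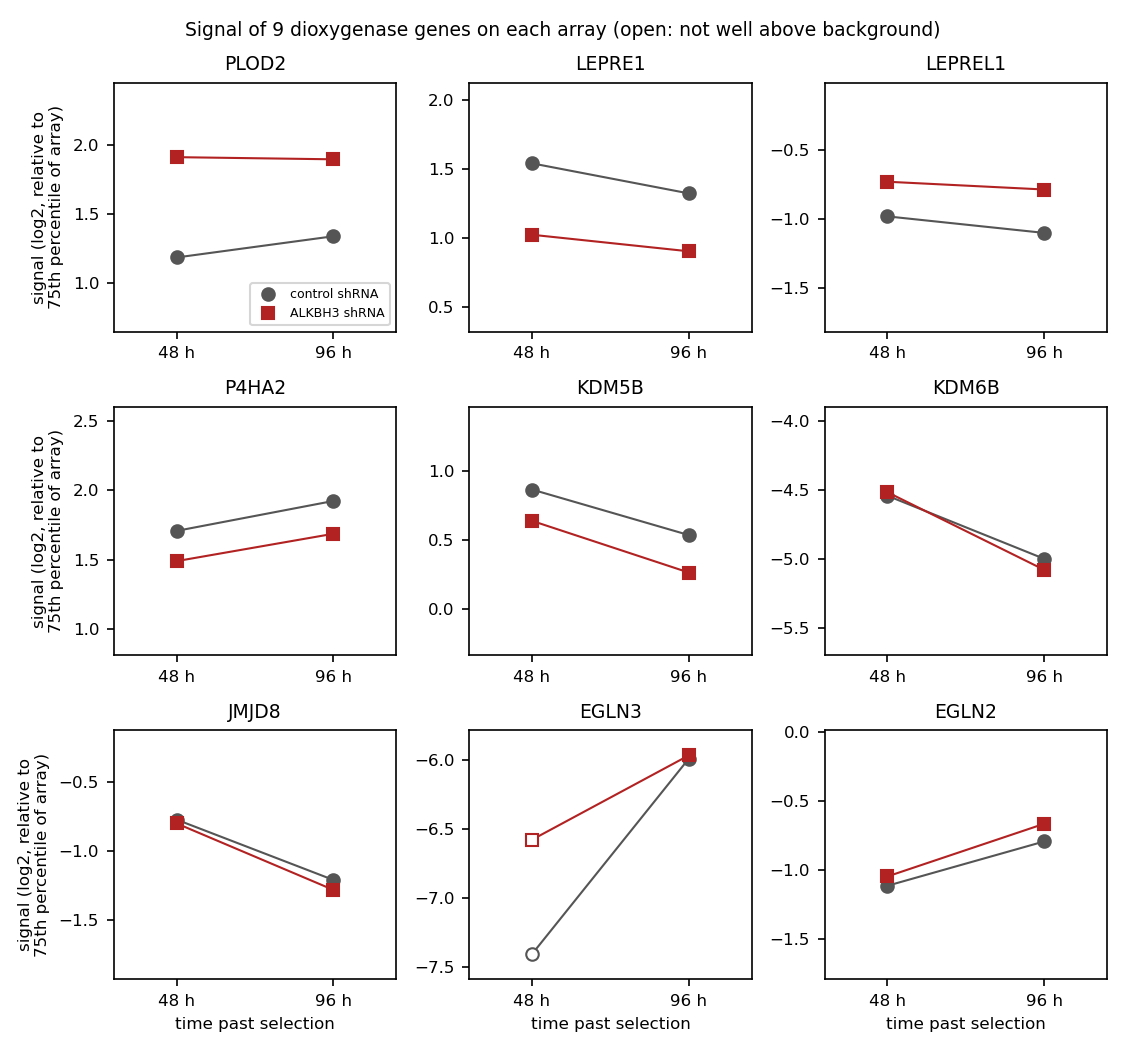
Signal on each of the 4 arrays (y axis, log2 relative to the 75th percentile of the array) at 48 h and 96 h (x axis) for 9 dioxygenase genes, with control shRNA as grey circles and ALKBH3 shRNA as red squares. Open symbols were not well above background, the panels span the same height but are placed at different levels, and lines join arrays of 1 shRNA. The PLOD2 arrays are separated by shRNA (1.19 and 1.34 against 1.91 and 1.90), while KDM6B and JMJD8 are separated by time point.

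The collagens and partners of these enzymes were examined in the same fit. Of 15 tested genes on this list, 4 were higher and 11 lower with ALKBH3 shRNA, where 50.5% of all genes were lower. The median difference was -0.18 log2. An unadjusted limma p below 0.05 was found for COL12A1 and COL7A1, which were higher, and COL6A1, which was lower (differences 0.76, 0.41 and -0.39). It was found for 8.3% of all genes. COL7A1 and COL6A1 were named after their values were seen. COL12A1 is a collagen associated with fibrils. It gave 1.165 and 2.0 at 48 h, then 1.57 and 2.25 at 96 h, a log2 difference of 0.76 (SE 0.19, limma adjusted p = 0.426, and 0.029 with time point as a block). The collagen gene COL1A1, given above as a marker, was not on this list. It was higher by 0.71 log2 (SE 0.27, limma adjusted p = 0.605, and 0.051 with time point as a block).

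The HIF prolyl hydroxylases EGLN1, EGLN2 and EGLN3 hydroxylate HIF-alpha in the presence of oxygen, which leads to its degradation through VHL, and P4HTM is a related enzyme bound to the endoplasmic reticulum. The 3 tested genes of this class were all higher with ALKBH3 shRNA, by 0.10 to 0.14 log2 with overlapping groups (limma adjusted p between 0.923 and 0.970). EGLN1 gave 0.43 and 0.60 at 48 h, then 0.68 and 0.79 at 96 h. EGLN2 gave -1.12 and -1.05 at 48 h, and -0.79 and -0.67 at 96 h. P4HTM gave 0.94 and 1.12 at 48 h, and 0.74 and 0.77 at 96 h. The sizes are smaller than their standard errors of 0.15 to 0.20, and larger than those with time point as a block, 0.079 to 0.086 (limma adjusted p between 0.368 and 0.518 with the block). The difference of EGLN1 shrank from 0.14 to 0.0031 with background correction by normexp, 0.0060 with the values normalized by the submitters and 0.01 without the control array of 48 h, and that of P4HTM turned to -0.07 when the ALKBH3 shRNA array of 48 h was left out. EGLN3 could not be tested for the shRNA, since its probe was well above background on the 96 h arrays only, where it read -5.99 with control and -5.97 with ALKBH3 shRNA.

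HIF1AN, the asparaginyl hydroxylase that blocks coactivator binding by HIF, was lower on both slides. It gave -3.10 and -3.54 at 48 h, then -3.01 and -3.18 at 96 h, a log2 difference of -0.31 (SE 0.16, limma adjusted p = 0.746) that ranged from -0.48 without the ALKBH3 shRNA array of 96 h to -0.13 without that of 48 h. It belongs structurally to the JmjC proteins, and was counted in the class of JmjC protein hydroxylases and others. All 6 genes of this class were lower at both time points, by 0.05 to 0.31 log2 (median -0.13), where 35.3% of all genes were lower at both. A second MINA probe, however, differed by -0.09 at 48 h and 0.06 at 96 h. The groups did not overlap for HIF1AN, JMJD4 and JMJD6, where 19% of all genes were lower without overlap. JMJD4, which hydroxylates a translation termination factor, gave 2.75 and 2.52 at 48 h and 2.83 and 2.62 at 96 h, and JMJD6 gave 0.47, 0.39, 0.48 and 0.35. The adjusted limma p-values of the class lay between 0.746 and 0.991, and the differences of JMJD5, JMJD6, JMJD8 and MINA were no larger than about 1 standard error in the fit without the block.

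The factors that the HIF hydroxylases act on or through, and the targets of HIF, were also counted. Of 8 HIF factors and degradation genes, 1 was higher and 7 were lower with ALKBH3 shRNA, where 50.5% of all genes were lower. Their median was -0.08 log2. EPAS1, which encodes HIF-2 alpha and was named after its values were seen, was the higher gene (difference 0.58, SE 0.17, limma adjusted p = 0.513). Its unadjusted limma p was below 0.05, as it was for 8.3% of all genes. Of 19 tested HIF targets outside the superfamily, 8 were higher and 11 lower, with a median of -0.01. Only ADM, which encodes the vasodilator peptide adrenomedullin, was past 1.5-fold with an unadjusted limma p below 0.05, as were 4.16% of all genes. It gave -0.23 and 0.73 at 48 h, then -0.08 and 0.23 at 96 h (difference 0.63, SE 0.21, limma adjusted p = 0.550). The 19 tested genes for the supply of 2-oxoglutarate and for the acids that inhibit these enzymes (isocitrate dehydrogenases, succinate dehydrogenase subunits, fumarase and others) had a median of 0.0070, with 11 higher and 8 lower. Of these, SDHA, a subunit of succinate dehydrogenase named after its values were seen, had an unadjusted limma p below 0.05 (difference -0.35, SE 0.11), as did 8.3% of all genes.

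The JmjC histone demethylases remove methyl groups from lysines of histone H3 and regulate transcription. Of 12 tested genes, 10 were lower and 2 higher with ALKBH3 shRNA, with a median of -0.11 log2 and a range of -0.26 to 0.18. The groups did not overlap for 6 lower genes, compared with 19% of all genes, and for 1 higher gene, compared with 17.4%, and the adjusted limma p was between 0.708 and 0.992. KDM2A, a demethylase of H3K36 that binds CpG islands, gave -0.73 and -0.93 at 48 h, then -0.78 and -1.09 at 96 h (difference -0.26, SE 0.12). KDM5B, a demethylase of H3K4, gave 0.86 and 0.64 at 48 h and 0.53 and 0.26 at 96 h. It was lower by 0.25 (SE 0.20), and the control array of 96 h lay below the ALKBH3 shRNA array of 48 h. The difference was -0.06 without the ALKBH3 shRNA array of 96 h, -0.08 without the control array of 48 h, -0.41 without that of 96 h and -0.44 without the ALKBH3 shRNA array of 48 h. Its second probe differed by -0.12 and -0.30. PHF2, a demethylase of H3K9, was the higher gene without overlap, with -0.69 and -0.60 at 48 h and -0.70 and -0.43 at 96 h (difference 0.18, SE 0.12).

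Probes of the same gene disagreed in sign for KDM2B and KDM4B. The brighter KDM2B probe read -2.12, -2.22, -1.89 and -2.05, a mean difference of -0.13, compared with 0.04 at its second probe. The brighter KDM4B probe read 2.80, 2.70, 2.85 and 2.56, a mean difference of -0.20, compared with 0.15 at the second. KDM5A, a further H3K4 demethylase, was not well above background at its only named probe on any array. Besides the genes named so far, KDM3A, KDM3B, KDM4A, KDM4C, KDM4D, KDM6B and JMJD1C had differences between -0.22 and 0.06. Of the 8 tested genes on the list of other superfamily members, 4 were higher and 4 lower, and none had an unadjusted limma p below 0.05, where 8.3% of all genes did.

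The TET enzymes oxidise 5-methylcytosine in DNA. TET1 gave -0.07 and -0.31 at 48 h, then -0.14 and -0.36 at 96 h, without overlap of the groups (difference -0.23, SE 0.12, limma adjusted p = 0.715). A second TET1 probe had a mean difference of -0.0014. TET2 gave -2.09 and -1.83 at 48 h and -2.01 and -2.14 at 96 h, so that the sign differed between time points, and of its 4 probes 3 had a mean difference above 0 and 1 below. The 6 genes of DNA methyltransferases and partners had 3 higher and 3 lower genes. None had an unadjusted limma p below 0.05, where 8.3% of all genes did.

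The AlkB relatives are the closest to ALKBH3, and include ALKBH5 and FTO, which remove methyl groups from adenosine in RNA, and ALKBH8, which modifies transfer RNA. Of 7 tested genes 6 were lower at both time points, where 35.3% of all genes were. The median was -0.13 log2, with a range of -0.21 (ALKBH7) to 0.03 (ALKBH1). For ALKBH5, ALKBH7, ALKBH8 and FTO the control arrays did not overlap with the ALKBH3 shRNA arrays and were higher, where 19% of all genes were lower with ALKBH3 shRNA without overlap. The adjusted limma p-values lay between 0.829 and 0.987, with standard errors of 0.11 to 0.17. ALKBH5 gave 0.69 and 0.60 at 48 h, then 0.74 and 0.58 at 96 h. FTO gave 0.66 and 0.50 at 48 h and 0.54 and 0.48 at 96 h. A difference of the size seen for ALKBH3 itself, -1.63, was not seen for any of these 7 genes on these arrays. Second probes of ALKBH5 and ALKBH8 had mean differences of -0.17 and -0.33. The second FTO probe differed by 0.14 at 48 h and -0.20 at 96 h, a mean of -0.03.

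The remaining enzymes are of mixed function. ASPH hydroxylates aspartate and asparagine in EGF-like domains, PHYH starts the breakdown of phytanic acid, and OGFOD1 hydroxylates a protein of the small ribosomal subunit. Of the 4 tested genes 3 were higher and 1 lower, between -0.03 and 0.07 log2. The brightest ASPH probe read 4.03, 4.03, 3.81 and 3.92, and differed by 0.05, while its other probes differed by -0.03 and -0.11. The brighter OGFOD2 probe read 1.480, 1.504, 1.56 and 1.59 and differed by 0.02, while the second differed by -0.07. BBOX1, the last enzyme of carnitine synthesis, was not well above background on any array.

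**Figure D3:**
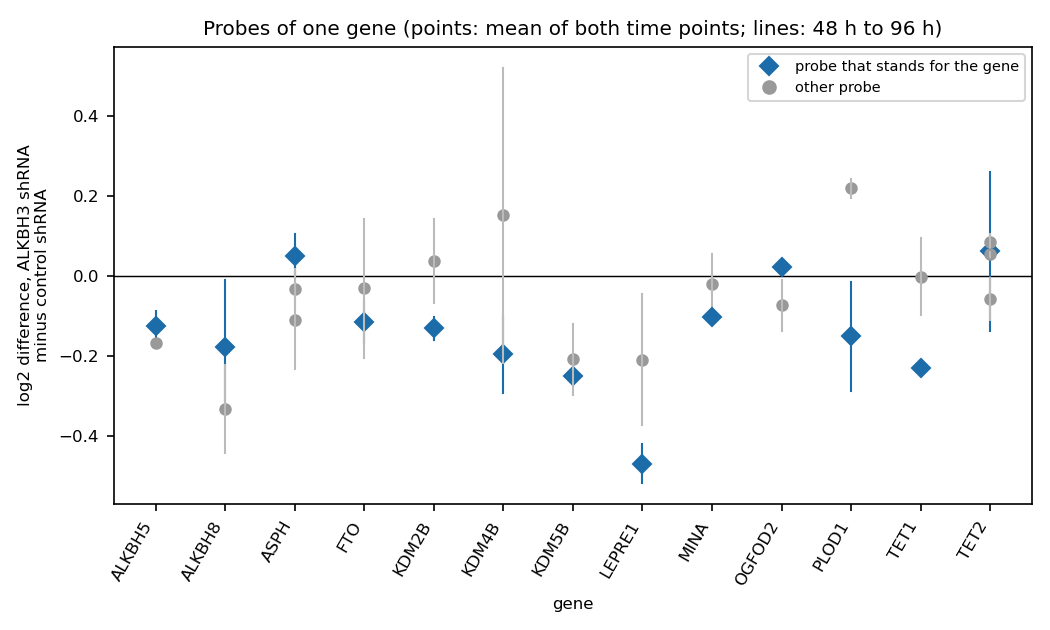
Log2 difference between ALKBH3 shRNA and control shRNA (y axis) at every probe well above background on all 4 arrays, for the 13 dioxygenase genes with more than 1 such probe (x axis). Points are means of both time points, lines run from the 48 h to the 96 h difference, blue diamonds are the probes that stand for the gene, and the probes of ASPH, KDM2B, KDM4B, OGFOD2, PLOD1 and TET2 lie on both sides of 0.

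The arrays also allowed 96 h to be compared with 48 h, with 43 dioxygenase genes tested, EGLN3 included. The 2-fold cutoff was passed by 1.06% of all 14559 genes (154 genes). Of the dioxygenase genes only EGLN3 passed it, a gene that entered the test through the 96 h arrays alone and is therefore no support for a difference here or in the counts that follow. An unadjusted limma p below 0.05 was found for 6 genes, or 14%, EGLN3 included, compared with 19.3% of all genes. EGLN2, EGLN3 and OGFOD1 were higher (9.6% of all genes) and JMJD8, KDM4A and KDM6B were lower (9.67% of all genes) at 96 h. The adjusted p was below 0.05 for 0 of them and for 0% of all genes, and with the shRNA as a block for JMJD8, KDM6B and EGLN3, compared with 14.7% of all genes. With that block an unadjusted p below 0.05 was found for 11 genes, compared with 35.4% of all genes. In all 20 genes were higher and 23 lower, with a median of -0.03 log2, compared with -0.01 over all genes. The groups did not overlap for 19 genes, or 44.2%, compared with 53.2% of all genes.

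EGLN3, the HIF prolyl hydroxylase best known as a HIF target, read -7.41 and -6.58 at 48 h, when neither array was well above background, then -5.99 and -5.97 at 96 h. The fitted log2 difference was 1.01 (SE 0.30, limma adjusted p = 0.198), 1.42 with control and 0.61 with ALKBH3 shRNA. The 48 h signals do not measure a level, so the 96 h signals were also set against the dimmest signals well above background. On this scale and with all 4 arrays they were 1.66-fold higher. This value compares the mean of the 96 h signals with the mean, over the 48 h arrays, of the dimmest signal well above background or the signal of the probe, whichever was higher. It is no minimum of a rise, since smaller values were fitted under other settings. Left out in turn, the control array of 48 h lowered the fitted difference to 0.60, and either 96 h array raised the unadjusted limma p above 0.05. Correction of the background by normexp lowered the difference to 0.24, and to 0.18 with quantile normalization. The other HIF prolyl hydroxylases differed by 0.22 (EGLN1, SE 0.11), 0.35 (EGLN2, SE 0.10) and -0.28 (P4HTM, SE 0.11). For each of them the time points did not overlap, as was the case for 53.2% of all genes.

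KDM6B, a demethylase of H3K27, read -4.54 and -4.52 at 48 h, then -4.998 and -5.08 at 96 h. Both 96 h arrays were below both 48 h arrays, with a log2 difference of -0.51 (SE 0.09, limma adjusted p = 0.122, and 0.028 with the shRNA as a block) that kept an unadjusted p below 0.05 under each of 15 alternative settings. JMJD8, a JmjC protein of the endoplasmic reticulum, read -0.77 and -0.80 at 48 h and -1.21 and -1.28 at 96 h. Its difference was -0.46 (SE 0.09, limma adjusted p = 0.133, and 0.032 with the shRNA as a block). Its unadjusted p was above 0.05 after normexp with quantile normalization (-0.24) and with the values normalized by the submitters (-0.25).

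Smaller differences were found for KDM4A, a demethylase of H3K9 and H3K36, and for OGFOD1. KDM4A read 0.09 and 0.14 at 48 h and -0.22 and -0.16 at 96 h, a difference of -0.31 (SE 0.09, limma adjusted p = 0.202). OGFOD1 read -0.02 and 0.01 at 48 h and 0.24 and 0.35 at 96 h, a difference of 0.31 (SE 0.09, limma adjusted p = 0.210). For both of them, and for EGLN2, the unadjusted p was above 0.05 when any 1 array was left out. For KDM4A and EGLN2 it was also above 0.05 with normexp, with normexp and quantile normalization and with the values of the submitters, where the difference was -0.14, -0.11 and -0.13 for KDM4A and 0.15, 0.19 and 0.19 for EGLN2, and with median centring for KDM4A (-0.26). KDM5B differed by -0.35 (SE 0.15), and its second probe by -0.44. HIF1AN differed by 0.22 (SE 0.18), with 0.09 in control and 0.36 in ALKBH3 shRNA cells. PLOD2 and LEPRE1, which stood at the ends for the shRNA, differed between time points by 0.07 (SE 0.32) and -0.17 (SE 0.24). These standard errors include their shRNA differences, and were 0.09 and 0.08 with the shRNA as a block. The probes of KDM4B, OGFOD2, PLOD1, TET1 and TET2 disagreed in sign in this comparison.

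**Figure D4:**
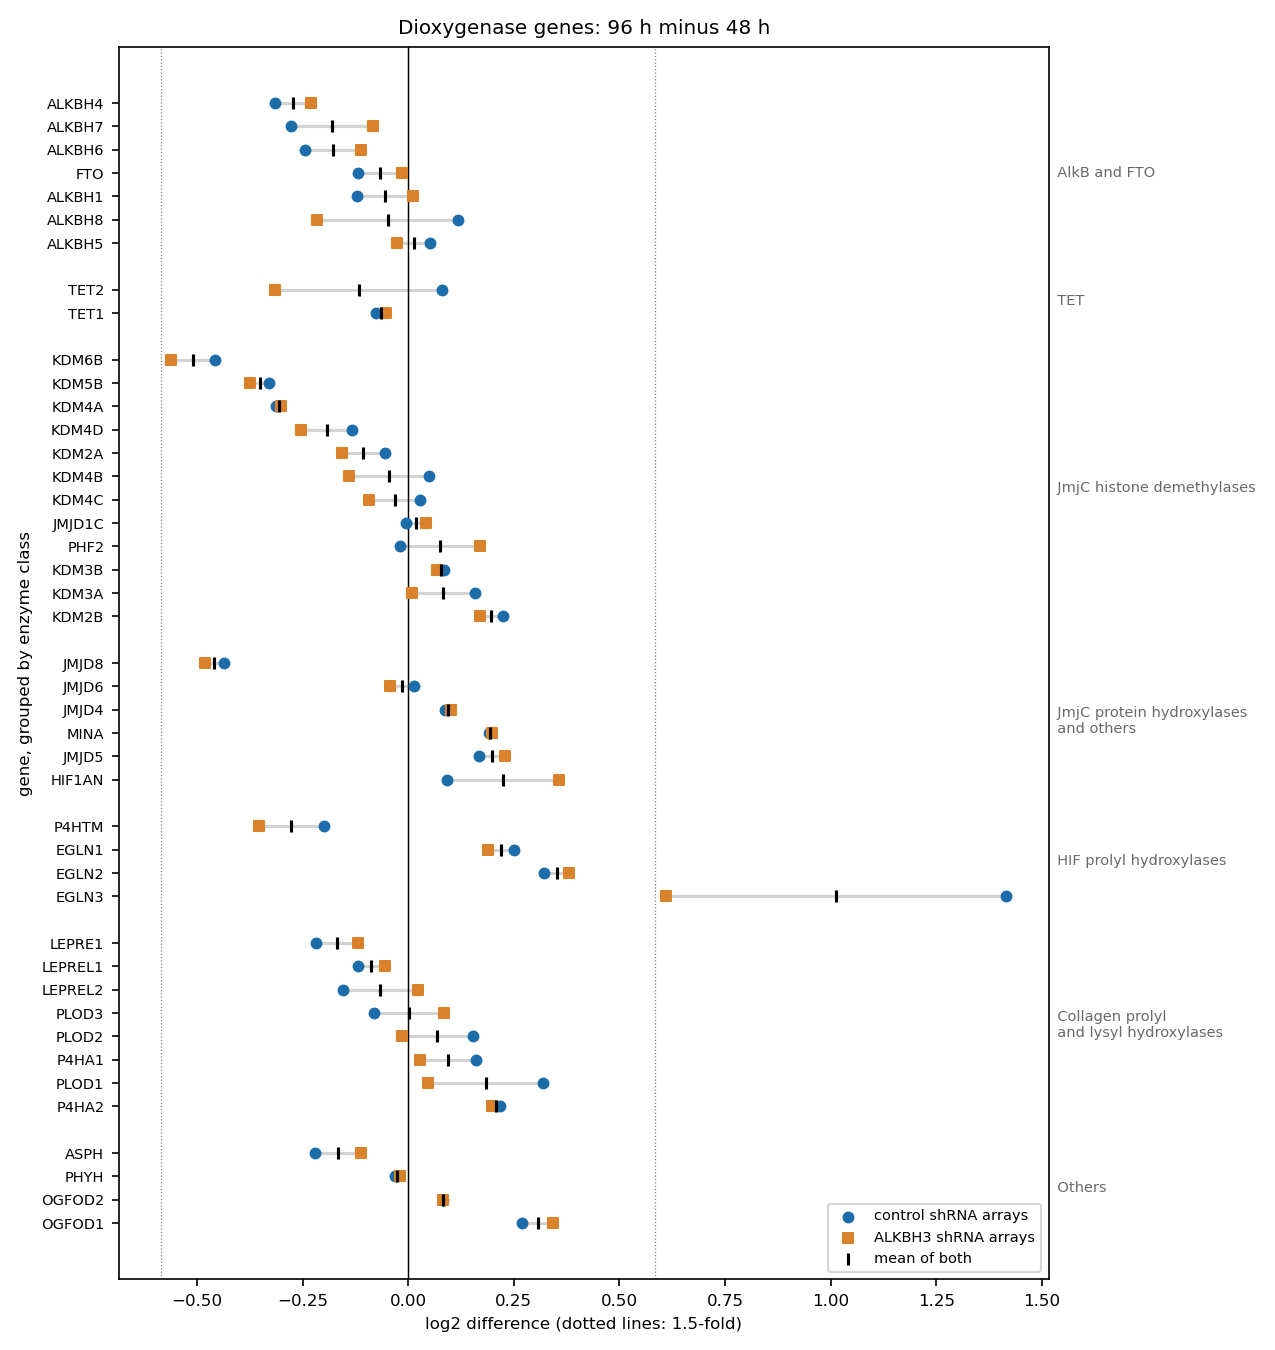
Log2 difference between 96 h and 48 h (x axis) for each of the 43 tested dioxygenase genes (y axis), grouped by enzyme class, on the control shRNA arrays (blue circles) and the ALKBH3 shRNA arrays (orange squares), with their mean (black bar). Each point compares 1 array with 1 array on another slide, and dotted lines mark 1.5-fold. EGLN3 lies beyond 1.5-fold in both (1.42 and 0.61), although its 48 h signals were not well above background.

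Among the accompanying lists, UHRF1, which recruits the maintenance DNA methyltransferase, was past the 2-fold cutoff, as were 1.06% of all genes. It read 0.48 and 0.78 at 48 h and 1.55 and 1.75 at 96 h (difference 1.02, SE 0.15, limma adjusted p = 0.115, and 0.017 with the shRNA as a block). KDM7A, a histone demethylase of the superfamily outside the 47 genes, read -2.20 and -2.17 at 48 h and -3.10 and -3.00 at 96 h (difference -0.86, SE 0.09, limma adjusted p = 0.112, and 0.017 with the block). DDIT4, a hypoxia-inducible inhibitor of mTORC1 signalling, read 0.59 and 0.82 at 48 h and -0.12 and -0.08 at 96 h (difference -0.80, SE 0.12, limma adjusted p = 0.115, and 0.018 with the block). KDM7A and DDIT4 were past 1.5-fold with an unadjusted limma p below 0.05, as were 6.08% of all genes. With the block, the adjusted limma p was below 0.05 for 14.7% of all genes. Of the 19 tested HIF targets, 9 were higher and 10 lower at 96 h, with a median of -0.02 log2. Of the 15 collagens and partners 3 were higher and 12 lower, with a median of -0.15, where 52.2% of all genes were lower.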

How the data were processed

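The authors deposited spot intensities of the 4 arrays which, per the file headers, Agilent Feature Extraction (version 10.7.3.1) had corrected for background and spatial trends, without normalization between arrays. The authors also deposited log2 values that they had normalized between arrays with limma, in a way not given in the sources used here, which served as an alternative. With 4 arrays, the precision of all values is limited.

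Of 43118 spots an array, 180 to 379 flagged as not uniform or outliers were removed, and 0 were saturated. Log2 intensities were centred on the 75th percentile of each array (2134 to 2385 in intensity) and averaged per probe. RefSeq (GRCh38.p14) named 24910 of 34127 probes through their accessions, old gene symbols included, and 9217 were not named. TET3 was not named in this way and was not analysed here. Some marker genes are not reported here. The software flags spots well above background, and a probe was taken as such where the share of its spots so flagged was 0.5 or more. Probes that were so on both arrays of at least 1 group were tested, the brightest probe stood for a gene, and other probes are reported where they disagree.

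R 4.3.3 with limma 3.58.1 (lmFit and eBayes, 2 arrays against 2, no covariate) and data.table (version 1.17.8) were used, and the steps were tested on simulated data. Time point served as a block because arrays of a time point share a slide. Deviations from the shRNA means correlated by 0.70 between arrays of a time point, and those from the time means by 0.64 between arrays of an shRNA. The genes and lists were chosen with earlier results of these data known. Values on all arrays were printed for genes past a cutoff, for the 5 largest rises and falls with the same sign in both pairs of arrays, and for genes whose probes disagreed in sign. Others were picked later. On the other lists, genes past 1.5-fold with an unadjusted p below 0.05 were named. The alternatives were normexp (offset 50, on spot medians) with and without quantile normalization, quantile normalization, median centring, the percentile over bright probes, the authors' values, no filter or a stricter one on dim probes, the mean over probes, a 1.5-fold cutoff, the block, leaving out each array, and the methods' t-test.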

Additional observations from a re-analysis of the deposited data

Results flagged for a closer look

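The second, dim probe of KDM4B, a histone H3K9 demethylase, differed in opposite directions at the 2 time points. It read -5.29 in control and -4.77 in knockdown cells at 48 h, then -4.62 and -4.84 at 96 h, so the log2 difference was 0.52 and then -0.22, which are 0.74 apart. Each value compares 1 array with 1 array, and the difference between the time points was not tested. The brighter KDM4B probe differed by -0.10 and -0.29.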

How the results depend on the processing

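With 2 arrays a group and all arrays of a time point on 1 slide, p-values rest on few degrees of freedom, and signals near background carry the least precision. The count of dioxygenase genes called with ALKBH3 shRNA was 0 under all alternatives except the 1.5-fold cutoff, which called 1 (PLOD2). For 96 h against 48 h it was 1 (EGLN3) and became 0 with normexp, normexp with quantile normalization, quantile normalization, the authors' values, the filter to probes well above background on all arrays and the methods' t-test, and between 0 and 1 with an array left out. The cause was not tested, except that the stricter filter removes EGLN3 itself. The median difference with ALKBH3 shRNA stayed below 0, at -0.12 with median centring, -0.080 with the percentile over bright probes, -0.048 with the mean over probes, and -0.095 to -0.073 with an array left out. That between time points was near 0 throughout: 0.00076 (normexp with quantile), 0.0073 (quantile), 0.025 (median centring), -0.0042 (bright probes), 0.0045 (authors' values), 0.0016 (mean over probes) and -0.045 to 0.046 with an array left out.

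Signs turned for genes with differences near 0 or with discordant probes. For ALKBH3 shRNA, the mean over probes gave -0.031 for ASPH, -0.024 for OGFOD2 and 0.035 for PLOD1, and with an array left out the range was -0.059 to 0.16 for ASPH, -0.018 to 0.066 for OGFOD2, -0.31 to 0.0096 for PLOD1, -0.074 to 0.28 for P4HTM and -0.096 to 0.22 for TET2. Between time points, KDM4B turned to 0.0052 with median centring and 0.13 with the mean over probes, TET1 to 0.15 with the mean over probes, and with an array left out the range was -0.19 to 0.10 for KDM4B, -0.18 to 0.057 for TET1 and -0.25 to 0.013 for TET2. With the replicate block (time point and slide for the shRNA comparison, shRNA for the time comparison), the count of dioxygenase genes called stayed at 0 and 1, and those with an unadjusted limma p below 0.05 went from 2 to 9 and from 6 to 11.

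Over all genes, 186 passed the 2-fold cutoff for the shRNA and 154 for time. These counts became 84 and 58 with normexp, 87 and 52 with normexp and quantile normalization, 120 and 100 with the authors' values, 332 and 478 without a filter, 60 and 71 with the methods' t-test, 606 and 885 at 1.5-fold, and 229 to 415 and 248 to 392 with an array left out.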
